A study of Mus musculus with 9 samples.

Results

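The genes described here encode 8 RNA-binding proteins of translational control in male germ cells: Dazl, Boll, Ybx2, Ybx3, Ddx25, Elavl2, Cpeb1 and Pabpc1. They were chosen by name from the 32285 genes of the count tables, and all 8 were detected and passed the filter on low counts. Their expression was followed from spermatogonia (SG) through spermatocytes (SC) to round spermatids (RS) in whole testes, at postnatal day 24, of mice labelled C57BL/6 (on the C57BL/6 J background, per the study's methods), by droplet single cell RNA-seq that counts the 3′ ends of transcripts with unique molecular identifiers (UMIs). The comparison took in 3 genotypes, with 1 library per mouse. The 4 control mice are labelled only as controls, and the study's methods call them littermates or non-littermates of the cKO mice, so which alleles each carried is not given in the sources used here. The 2 NELF-B cKO mice carried 1 floxed and 1 null allele of Nelfb, which encodes a subunit of the complex that pauses RNA polymerase II, and the 3 TDP-43 cKO mice carried 1 floxed and 1 null allele of Tardbp, which encodes the DNA- and RNA-binding protein TDP-43. Both cKO lines also carried Stra8-iCre, a recombinase transgene that is switched on in SG and does not act in every germ cell, and which deletes the first exons of Nelfb or the third exon of Tardbp. Levels are given in CPM, the share of a gene among all UMIs summed over the cells of a stage in a mouse, on the usual CPM scale, and the mouse is the unit of replication.

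Male germ cells transcribe many messages long before they are translated, because the chromatin is closed once the spermatid elongates. RNA-binding proteins decide when such messages meet the ribosome. DAZL and BOLL, both of the DAZ family, bind the 3′ untranslated region of their targets and help to recruit the poly(A)-binding protein PABPC1, which bridges the tail and the cap of a message. CPEB1 binds a U-rich element and controls the length of the poly(A) tail, and ELAVL2 is a neuronal-type Hu protein that binds AU-rich elements. YBX2 (also called MSY2) and YBX3 (MSY4) are Y-box proteins that package stored messages, and DDX25 is the gonadotropin-regulated testicular RNA helicase that is needed for spermatid development.

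The 9 libraries held 119203347 to 159407373 UMIs, and 45132 barcodes passed a filter of over 1000 genes and under 10% mitochondrial UMIs. Of these, 27949 lay in the 19 of 24 clusters that could be named from marker genes. Control replicate 2 provided 98.6 and 97.3% of the barcodes in 2 unnamed clusters, and the median barcode held between 1754 UMIs in that library and 19254 in TDP-43 cKO replicate 1. Germ cells in which the targeted gene was still seen were left out of the cKO mice, 232 with a Nelfb UMI and 3108 with a Tardbp UMI. Of 17959 germ cells in named clusters, over all 9 mice, 14619 were left. Nothing was removed from the control mice, and a cell with more UMIs is more likely to show one of the targeted gene. In SG with early SC, before this removal, Nelfb had 4.13 and 5.09 CPM in NELF-B cKO replicates 1 and 2, against 59.9 to 70.2 in the controls. Tardbp had 34.4, 51.8 and 55.2 CPM in TDP-43 cKO replicates 1 to 3, against 120.3 to 160.7 in the controls, although its 3′ UMIs lie outside the deleted exon. Early SC joins preleptotene (pL), leptotene (L) and zygotene (Z) cells, and the pL and L clusters shared markers with each other and with the Z cluster, so that their order was not settled. After the removal, the pachytene (P), diplotene (D) and RS sums of TDP-43 cKO replicate 1 held 0, 1 and 1 cells. Those of NELF-B cKO replicate 2 held 24, 5 and 5, and sums of under 10 cells entered no test. The P cluster had a median of 74711 UMIs and the Z cluster 10487, so the removal need not have fallen evenly on the stages. RS joins a cluster with Prm2 (median 30223.5 UMIs) and one with few UMIs (median 2707.5).

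In the control mice, the 8 genes followed 3 courses. Dazl, Elavl2 and Cpeb1 were high in SG and early SC and low from P SC onwards, and Ybx2, Ybx3, Ddx25 and Pabpc1 were highest in P or D SC. Among the named stages, Boll was highest in early SC and P SC. Between SG and early SC, 59% of 19571 genes tested changed (edgeR, adjusted p under 0.05), 29.4% upwards and 29.6% downwards, and 7 of the 8 genes rose. With free RNA subtracted, the calls on Ybx3 (log2 1.65, adjusted p = 0.143) and Cpeb1 (log2 0.72, adjusted p = 0.06) were lost. Between early SC and P SC, 76.5% of genes changed, 30.3% upwards and 46.2% downwards, and 4 of the 8 rose while 3 fell. Between P SC and D SC, 61.3% of genes changed, 27.6% upwards and 33.6% downwards, and 5 of the 8 fell. Between D SC and RS, 59.9% of genes changed, 31.6% upwards and 28.2% downwards, and 1 of the 8 rose while 2 fell. At the first step the share of the 8 that rose was above that of all genes, and at the last the share that changed was below it; as the 8 were chosen by name, nothing particular to them is read from these counts.

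**Figure D1:**
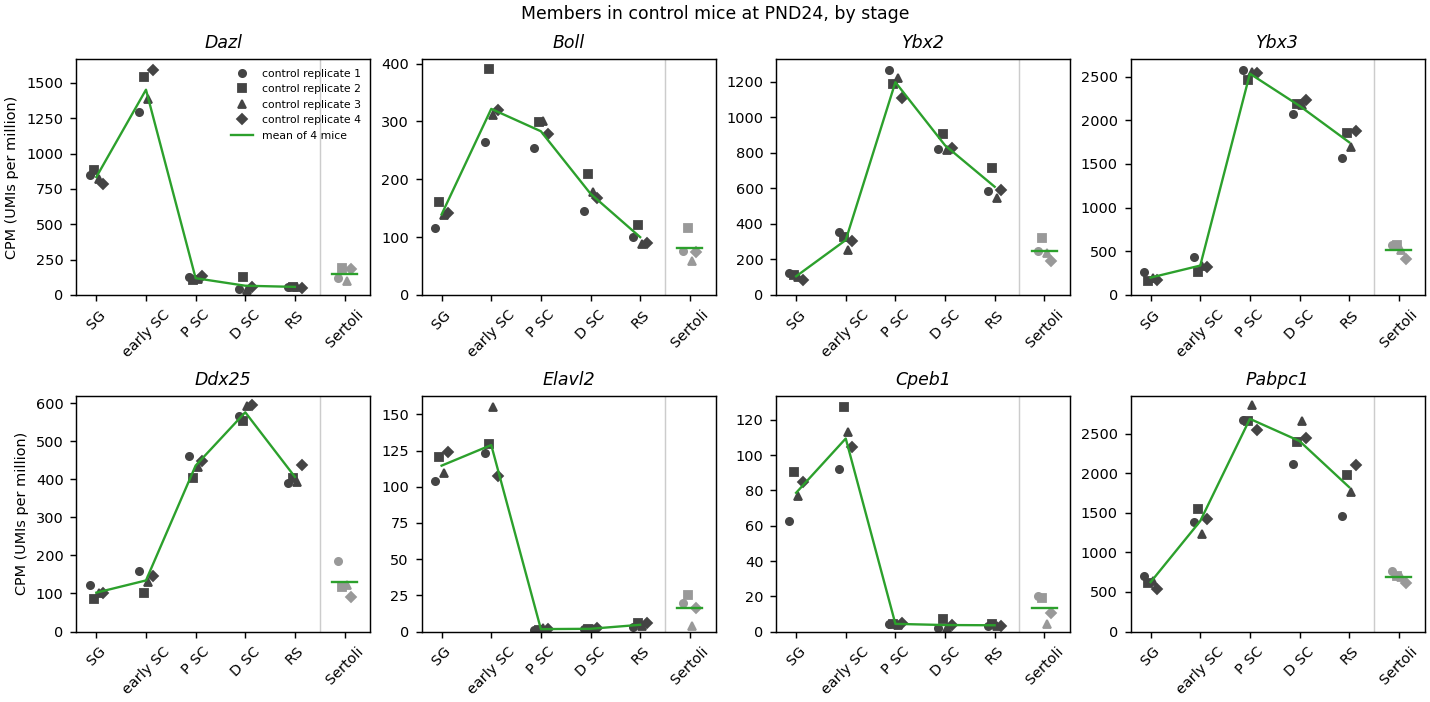
Level of each gene in CPM (vertical axis, its own linear scale in each of the 8 panels) by stage from SG to RS in the 4 control mice; each marker shape is 1 mouse, the green line is the mean, and grey points give Sertoli cells. Dazl, Elavl2 and Cpeb1 drop between early SC and P SC, while Ybx2, Ybx3, Ddx25 and Pabpc1 climb there.

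Dazl, which lies on chr17:50279395-50293636 of the GRCm38 build on the minus strand, had its highest level in early SC, at 1291, 1540, 1383 and 1590 CPM in control replicates 1 to 4. In SG it stood at 849.9, 880.6, 821.2 and 783.9 CPM. In P SC it stood at 129.8, 103.2, 109.5 and 131.3 CPM. The 3 ranges did not overlap. Dazl rose from SG to early SC with a log2 fold change of 0.96 ± 0.21 (SE, adjusted p = 0.000611), fell 9.70-fold from early SC to P SC (log2 -3.28 ± 0.23, adjusted p = 8.58e-11), and fell again to D SC (log2 -1.14 ± 0.22, adjusted p = 0.000178). Sertoli cells, somatic cells that do not express Dazl, showed 96.9 to 189.2 CPM of it in the same mice, a level that the P SC reached and the D SC (65.2 ± 41.5 CPM, SD, n = 4) and RS (57.0 ± 4.17) mostly stayed under. The decrease from P SC to D SC stayed called with free RNA subtracted (log2 -1.44, adjusted p = 0.00204), and how much of the Dazl counts from P SC onwards was background was not settled.

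Boll (chr1:55248658-55363469, minus strand), the meiotic member of the DAZ family, stood at 264.9, 391.2, 311.9 and 319 CPM in early SC and at 254.5, 298.7, 300.4 and 278.6 CPM in P SC of control replicates 1 to 4. These ranges overlapped, and the change between the stages did not pass the test (log2 0.15 ± 0.08, adjusted p = 0.0953). It had risen 2.58-fold from SG, where it was 139 ± 18.9 CPM (log2 1.37 ± 0.09, adjusted p = 1.07e-10). Boll then fell to 175 ± 26.5 CPM in D SC (log2 -0.93 ± 0.08, adjusted p = 1.08e-08) and to 100 ± 14.8 CPM in RS (log2 -0.58 ± 0.09, adjusted p = 7.17e-06). Among the named stages its decrease was thus spread over D SC and RS, whereas Dazl dropped before P SC. An unnamed cluster, left out of this course, held more Boll, at 636.8 to 826.7 CPM in the controls. Sertoli cells read 58.2 to 116.6 CPM of Boll, a range that held the mean of the RS.

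Elavl2 (chr4:91250763-91400785, minus strand) and Cpeb1 (chr7:81347026-81455465, minus strand) showed the largest folds between highest and lowest stage, 76.9 and 30.8. Elavl2 stood at 123.4, 129.5, 155.2 and 107.2 CPM in early SC and at 1.36, 1.05, 2.40 and 1.89 CPM in P SC. Cpeb1 stood at 92.4, 127.5, 113.2 and 104.9 CPM in early SC and at 4.31, 4.39, 3.81 and 4.87 CPM in P SC. No mouse came near the range of the other stage for either gene. Elavl2 fell 61.6-fold (log2 -5.95 ± 0.20, adjusted p = 4.88e-15) and Cpeb1 20.2-fold (log2 -4.33 ± 0.16, adjusted p = 1.95e-14). Within early SC, Elavl2 was concentrated in the pL cluster (187.2 to 265.5 CPM) and the L cluster (229.6 to 346.9 CPM) and stood at 19.0 to 30.1 CPM in the Z cluster. The RS level of Elavl2, 4.65 ± 1.34 CPM, was above that of D SC (log2 1.56 ± 0.30, adjusted p = 0.000142), but both lay at or below the 4.08 to 24.9 CPM of Sertoli cells. Cpeb1 rose from SG, at 78.7 ± 12.0 CPM, to early SC (log2 0.64 ± 0.14, adjusted p = 0.000454), a call lost with free RNA subtracted (log2 0.72, adjusted p = 0.06), and the step of Elavl2 did not pass (log2 0.33 ± 0.15, adjusted p = 0.067).

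The Y-box genes took the opposite course. Ybx3 (chr6:131364855-131388476, minus strand) stood at 435.4, 261.7, 328.9 and 320 CPM in early SC, at 2580, 2458, 2550 and 2547 CPM in P SC, and at 1566, 1853, 1696 and 1878 CPM in RS. Every P SC value lay above every value of the other stages. Ybx3 rose 9.56-fold from early SC to P SC by the fitted value (log2 3.26 ± 0.14, adjusted p = 1.55e-13, and log2 2.93 with plain totals of UMIs). Its early SC level was not told apart from background, as given below, so the size of this increase is not settled. Ybx3 then fell to D SC (log2 -0.45 ± 0.13, adjusted p = 0.00525). That decrease did not pass with RLE factors, plain totals of UMIs, DESeq2 or free RNA subtracted (adjusted p = 0.124 to 0.695), settings of which RLE factors shift the median of all genes at this step by 0.215 and plain totals by 0.232 on the log2 scale. Ybx2 (chr11:69935796-69941605, plus strand) stood at 352.9, 323.6, 254.1 and 306 CPM in early SC and at 1269, 1189, 1223 and 1112 CPM in P SC. It rose at both early steps, from SG (log2 1.72 ± 0.11, adjusted p = 1.84e-10) and to P SC (log2 2.29 ± 0.11, adjusted p = 6.1e-13), and none of its neighbouring stages overlapped. It fell to 843 ± 41.3 CPM in D SC (log2 -0.74 ± 0.11, adjusted p = 5.74e-06), a call lost with free RNA subtracted (log2 -0.79, adjusted p = 0.433), and the further difference to RS, at 609 ± 72.5 CPM, did not pass (log2 -0.24 ± 0.11, adjusted p = 0.0566).

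The low end of these courses lay at the level of Sertoli cells, which are somatic. Sertoli cells of the control mice read 189.9 to 319.6 CPM of Ybx2, 413.7 to 572.1 of Ybx3, 91.3 to 185.6 of Ddx25 and 614.7 to 767.2 of Pabpc1. The SG of the same mice stood at 81.6 to 126.1 CPM of Ybx2 and at 163.6 to 262.5 of Ybx3, below the Sertoli cells. The Sertoli level depended on depth: over all 9 mice, the cluster with few UMIs (median 2150) held 222.9 CPM of Ybx2 and 473 of Ybx3, and that with many (median 35550) held 32.4 and 105 CPM. Each of the types had a further, smaller cluster, with a median of 4730 (Sertoli) or 2340 UMIs (SG), whose levels are not given here. The larger SG clusters, with medians of 28020.5 (Gfra1) and 21692.5 UMIs (Kit), held 28.9 and 59.6 CPM of Ybx2 and 79.0 and 125.7 CPM of Ybx3 over the same mice. Ybx2 and Ybx3 in SG, and Ybx3 in early SC, where it lay below the Sertoli cells of the same mouse in 4 of 4 controls, were therefore not told apart from background. Whether Sertoli cells express Ybx3 themselves was not tested, so their level may lie above background for this gene. In early SC, Ybx2 stood above the Sertoli cells of the same mouse in 4 of 4 controls, by as little as 323.6 against 319.6 CPM in replicate 2. Ddx25 in SG and early SC and Pabpc1 in SG lay within or below the range of the Sertoli cells, though Pabpc1 is expressed in most cell types.

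Ddx25 (chr9:35536647-35558528, minus strand) peaked latest of the 8, at 565.9, 552.8, 592.7 and 594.7 CPM in D SC, against 461.8, 402.7, 433.5 and 447.1 CPM in P SC. The ranges did not overlap, but the step did not pass after scaling across genes (log2 0.18 ± 0.10, adjusted p = 0.142). It had risen 4.11-fold from early SC (134 ± 25.0 CPM) to P SC (log2 2.04 ± 0.11, adjusted p = 1.34e-12). The decrease to RS, at 407 ± 21.5 CPM (log2 -0.27 ± 0.10, adjusted p = 0.0254), held in 4 of 11 alternatives and was lost without control replicate 3 or 4 (adjusted p = 0.168 and 0.051).

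Pabpc1 (chr15:36595661-36609668, minus strand) was present at every stage. It stood at 700.9, 618.4, 644.7 and 532.7 CPM in SG, at 1390, 1548, 1233 and 1417 CPM in early SC, and at 2674, 2665, 2865 and 2550 CPM in P SC. These 3 ranges did not overlap. The increase from SG was 2.49-fold (log2 1.32 ± 0.12, adjusted p = 1.62e-08) and that to P SC 2.42-fold (log2 1.27 ± 0.12, adjusted p = 7.7e-09). Within early SC the level was 517.1 to 738.3 CPM in the pL cluster, 482.2 to 692.9 in the L cluster and 1887 to 2142 in the Z cluster, so the Z cluster held the high values. The decrease to D SC (log2 -0.39 ± 0.12, adjusted p = 0.00737) was lost in 5 of 10 alternatives, among them the one without control replicate 1 (adjusted p = 0.0621).

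Some genes outside the set ran almost in parallel over the 20 control sums of mouse and stage. Among 7998 genes with a mean of at least 20 CPM, those closest by Pearson's r were Nr1d2 for Dazl (0.996), Hectd2 for Boll (0.989), Morc2b for Ybx2 (0.994), Cenpv for Ybx3 (0.998), Lmf1 for Ddx25 (0.996), Tfdp2 for Elavl2 (0.996), Zfyve9 for Cpeb1 (0.994) and Stk33 for Pabpc1 (0.988). The 20 sums come from 4 mice and share libraries and depth, so r is a description.

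The comparison of genotypes asked which of these genes differed from the controls in SG with early SC. The mix of cells in these sums already differed between genotypes. Early SC made up 66.1, 54, 64.4 and 75.1% of the cells in control replicates 1 to 4. For TDP-43 cKO replicates 1 to 3 the share was 42.6, 53.4 and 52.5%, against 60.6 and 51.2% for NELF-B cKO replicates 1 and 2. Ybx2, Ybx3, Ddx25 and Pabpc1 rose from SG to early SC in the controls, as did Dazl, Boll and Cpeb1. How much of a difference in these sums came from this share was not tested. Each stage is taken alone below, where the mix within early SC is given. In SG with early SC of the TDP-43 cKO mice, Ybx2, Ybx3, Pabpc1 and Ddx25 were below the controls, and Dazl, Cpeb1, Boll and Elavl2 did not pass the test. Of 19801 genes tested, 16.6% were called, 11.5% lower and 5.12% higher, beside 4 and 0 of the 8. Ybx3 lay below the Sertoli cells of the same mouse in these sums in each of the 4 controls and 3 TDP-43 cKO mice, and below them in the Z cluster of the controls too, so that a difference in Ybx3 was not told apart from one in background. In the same sums, Ybx2 lay below the Sertoli cells of the same mouse in control replicates 2 and 3 and TDP-43 cKO replicate 2, and Ddx25 in control replicates 1 to 3. Differences in these levels were therefore not told apart from background either.

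Ybx2 stood at 259.6, 210.4, 178.8 and 225.8 CPM in control replicates 1 to 4 and at 26.1, 66.0 and 58.3 CPM in TDP-43 cKO replicates 1 to 3. Ybx3 stood at 364.3, 209.7, 264.2 and 266.5 CPM in the controls and at 46.2, 99.9 and 90.9 CPM in the TDP-43 cKO mice. Every cKO mouse lay below every control mouse, as for 5 of the 8 genes (the fifth is Boll), a pattern that 23.9% of genes of at least 20 CPM showed. Ybx2 fell 4.29-fold (log2 -2.10 ± 0.31, adjusted p = 0.00941) and Ybx3 3.45-fold (log2 -1.78 ± 0.38, adjusted p = 0.02). TDP-43 cKO replicate 1 had the lowest value for both, and without it Ybx3 did not pass (log2 -1.53, adjusted p = 0.0739), as without control replicate 4 (adjusted p = 0.0532) or TDP-43 cKO replicate 3 (adjusted p = 0.0571). The call on Ybx2 held whichever mouse was left out (adjusted p = 0.0165 to 0.0367).

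Pabpc1 stood at 1107, 1056, 941.5 and 1101 CPM in the controls and at 504.3, 658.9 and 720.6 CPM in the TDP-43 cKO mice. Ddx25 stood at 143.8, 92.4, 116.7 and 129.8 CPM in the controls and at 70.5, 78.4 and 77.8 CPM in the TDP-43 cKO mice. The groups did not overlap for either gene. Pabpc1 fell 1.64-fold (log2 -0.71 ± 0.12, adjusted p = 0.0104), whichever mouse was left out (adjusted p = 0.0182 to 0.0367). Ddx25 fell 1.56-fold (log2 -0.65 ± 0.16, adjusted p = 0.0291), and this held in 1 of 7 fits that left out a mouse, that without control replicate 2 (adjusted p = 0.016 to 0.105). Boll (log2 -0.35 ± 0.12, adjusted p = 0.062), Elavl2 (log2 0.35 ± 0.12, adjusted p = 0.075), Dazl (log2 0.13 ± 0.09, adjusted p = 0.329) and Cpeb1 (log2 0.05 ± 0.13, adjusted p = 0.819) did not pass, though DESeq2 called Boll (log2 -0.37, adjusted p = 0.025). Without control replicate 2, whose library stood apart, the 4 calls held (adjusted p = 0.0169 for Ybx2, 0.0263 for Ybx3, 0.016 for Ddx25 and 0.0203 for Pabpc1).

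**Figure D2:**
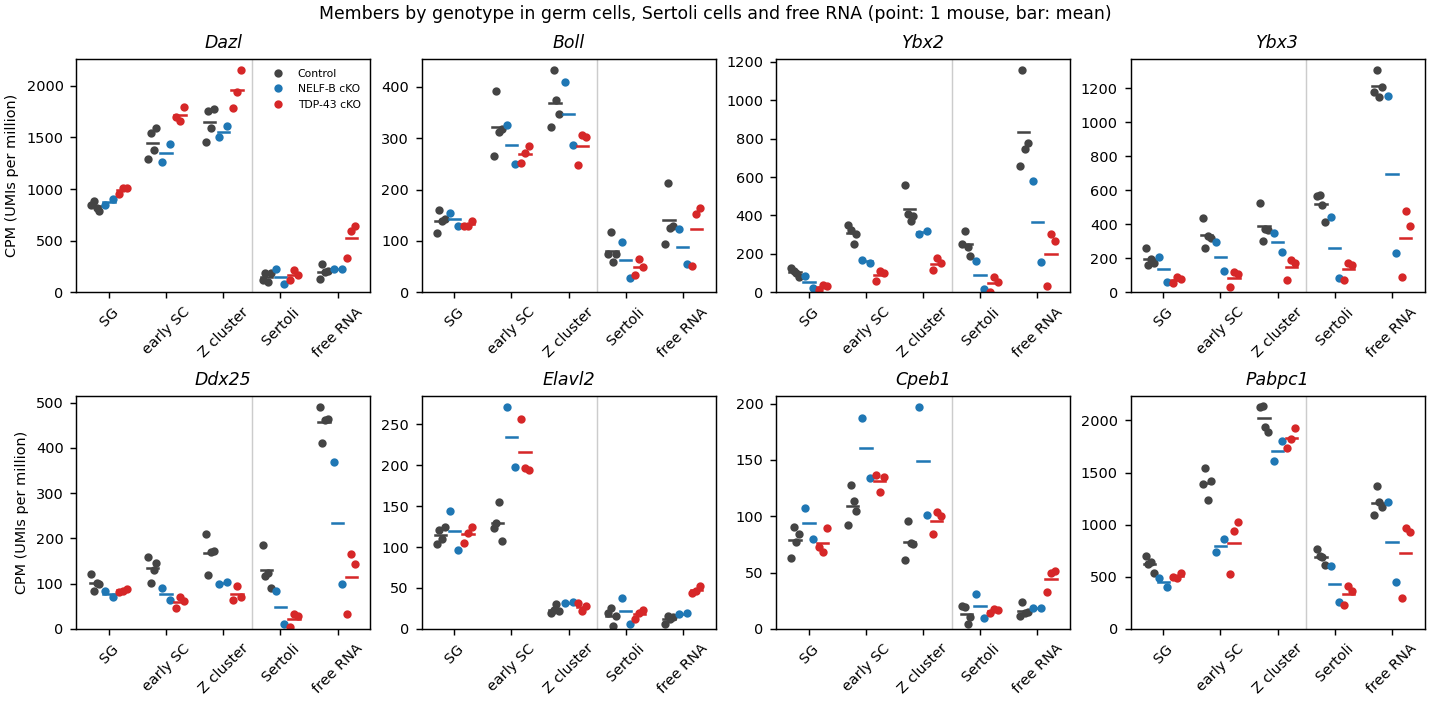
CPM of each gene (vertical axes, linear) in SG, early SC, the Z cluster, Sertoli cells and free RNA, by genotype (control black, NELF-B cKO blue, TDP-43 cKO red); points are mice and bars are means. Ybx2, Ybx3 and Ddx25 are lower in the TDP-43 cKO mice in early SC, and they are lower in free RNA and in Sertoli cells as well.

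Free RNA held less Ybx2, Ybx3, Ddx25 and Pabpc1 in the TDP-43 cKO libraries than in those of the controls, and more Dazl, Elavl2 and Cpeb1, while Boll overlapped. In barcodes of 1 to 100 UMIs, which hold no cell, Ybx2 made up 655.2 to 1157 CPM in the control libraries. It made up 580.9 and 156.3 CPM in those of NELF-B cKO replicates 1 and 2 and 31.4, 302.8 and 268.4 CPM in those of TDP-43 cKO replicates 1 to 3. Ybx3 made up 1152 to 1309 CPM in the control libraries and 90.2, 479.6 and 391.1 in the TDP-43 cKO libraries. Dazl made up 126.4 to 271.3 CPM in the control libraries and 333.9, 593.4 and 641.5 in the TDP-43 cKO libraries. Sertoli cells read 3.87, 80.4 and 55.8 CPM of Ybx2 in the TDP-43 cKO mice. The libraries with few P SC, D SC and RS were those with little Ybx2, Ybx3 and Ddx25 in free RNA. Judged by markers of somatic cells, free RNA made up 20.2 to 32.2% of the UMIs in SG with early SC of the controls. The shares were 17.3 and 9.25% for NELF-B cKO replicates 1 and 2, and 5.54, 12.4 and 12.0% for TDP-43 cKO replicates 1 to 3. In the same sums the 4 markers of late spermatids reached 7.14 to 198.6 CPM in the controls, against 4.87 to 6.34 CPM in TDP-43 cKO replicates 1 to 3, with 2 of 4 at 0 in a TDP-43 cKO mouse.

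The calls depended on how much free RNA was subtracted. The lower of the ratios from somatic and late spermatid markers was that of late spermatids in the 4 controls (4.13 to 12.46% of UMIs) and that of somatic cells in the 3 TDP-43 cKO mice. With this share subtracted, lower levels were called for Ybx2 (log2 -2.39, adjusted p = 0.00974) and Pabpc1 (log2 -0.76, adjusted p = 0.00995), with 8.35% of genes called, and Ybx3 (log2 -1.96, adjusted p = 0.0515) and Ddx25 (log2 -0.33, adjusted p = 0.478) did not pass. At the somatic ratio in every mouse, which took more from the controls and the same from the TDP-43 cKO mice, Ybx2 was at log2 -0.30 (adjusted p = 0.93), Ybx3 at 3.11 (adjusted p = 0.216) and Ddx25 at 2.31 (adjusted p = 0.218), and Pabpc1 kept its call (log2 -0.63, adjusted p = 0.0378), with 6.14% of genes called. Leaving cells with a Tardbp UMI out of the control mice as well gave log2 -1.66 for Ybx2 (adjusted p = 0.0498), -1.84 for Ybx3 (adjusted p = 0.0498), -0.55 for Ddx25 (adjusted p = 0.0648) and -0.28 for Pabpc1 (adjusted p = 0.192).

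In early SC alone, 22.2% of 16038 genes were called in the TDP-43 cKO mice, 14.3% lower and 7.84% higher. Of the 8 genes, 4 fell and Elavl2 rose. Ybx2 stood at 57.4, 108.7 and 99.7 CPM in the cKO mice against 254.1 to 352.9 in the controls, and fell 3.49-fold (log2 -1.80 ± 0.20, adjusted p = 0.00174). Ddx25 stood at 45.5, 69.8 and 60.6 CPM against 101.0 to 158.9, and fell 2.29-fold (log2 -1.19 ± 0.20, adjusted p = 0.00509). Ybx3 stood at 29.7, 118.9 and 109.7 CPM against 261.7 to 435.4, and fell 3.90-fold (log2 -1.96 ± 0.44, adjusted p = 0.0149). No cKO mouse reached the controls for these 3 genes, nor for Pabpc1, a pattern of 22.5% of genes of at least 20 CPM, and the 3 calls held in the 10 alternatives run for early SC, which left out each mouse in turn, kept the cells with a Tardbp UMI, subtracted free RNA at the lower ratio or used DESeq2. The somatic ratio, at which Ybx3 and Ddx25 lost their calls in SG with early SC and in the Z cluster, was not run for early SC, and the Ybx3 levels are those not told apart from background. Leaving cells with a Tardbp UMI out of the controls too, and a block for the replicate number, were run only for SG with early SC. There Ddx25 lost its call with the former, and Ybx2, Ybx3 and Ddx25 lost theirs with the block. Elavl2 stood at 257, 196.8 and 194.6 CPM against 107.2 to 155.2 and rose 1.68-fold (log2 0.75 ± 0.17, adjusted p = 0.0163), which did not pass when cells with a Tardbp UMI were kept (adjusted p = 0.097). Its share of free RNA was higher as well, at 44.0 to 52.0 CPM in the TDP-43 cKO libraries against 6.02 to 15.7 in those of the controls. Pabpc1 fell 1.69-fold (log2 -0.76 ± 0.19, adjusted p = 0.0228) and passed in 5 of 10 alternatives, without control replicates 1, 2 and 4 and TDP-43 cKO replicate 1 not (adjusted p = 0.0506, 0.0585, 0.0581 and 0.056), nor with cells holding a Tardbp UMI kept (log2 -0.40, adjusted p = 0.205).

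In SG alone, 1 gene of 18043 was called in the TDP-43 cKO mice, or 0.00554%, and none of the 8, while 1096 genes were higher and 2341 lower at an unadjusted p under 0.05. The called gene was Tardbp itself (log2 -12.22, adjusted p = 4.3e-06), whose UMIs the removal had taken out of these cKO cells. DESeq2 called 1477 genes, among them Dazl (log2 0.34, adjusted p = 0.000125), Ybx2 (log2 -1.84, adjusted p = 0.0199) and Ybx3 (log2 -1.34, adjusted p = 0.0258). Ybx2 was at log2 -1.88 ± 0.49 and Ybx3 at -1.38 ± 0.39 (adjusted p = 0.127 for each). Dazl stood at 955.4, 1006 and 1014 CPM against 783.9 to 880.6 in the controls without passing in edgeR (log2 0.30 ± 0.06, adjusted p = 0.127). Whether the effect of the TDP-43 cKO differed between the stages was tested as an interaction, for which 6.03% of 18713 genes were called, 4.69% lower in early SC. Ddx25 was among them (log2 -1.09 ± 0.15, adjusted p = 0.00807), with a stronger decrease in early SC than in SG, in 6 of 8 alternatives (not without TDP-43 cKO replicate 3, adjusted p = 0.0563, or with all cells kept, 0.0583). The 8 alternatives left out a mouse or kept all cells, and none subtracted free RNA. With free RNA subtracted, Ddx25 in SG changed sign, and its levels in these stages were not told apart from background. The part of the mix within early SC in this difference was not tested. Boll was called as well (log2 -0.33 ± 0.09, adjusted p = 0.0487) and passed in 0 of 8 alternatives (adjusted p = 0.0956 to 0.89). For Ybx2 the difference was log2 0.04 ± 0.33 (adjusted p = 0.97).

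The mix of cells in early SC also differed between genotypes. The Z cluster made up 38.2, 59.8, 46.4 and 61.5% of early SC in control replicates 1 to 4, against 17.8 and 35% for NELF-B cKO replicates 1 and 2 and 13.5, 38.8 and 39.7% for TDP-43 cKO replicates 1 to 3. Since Pabpc1 is higher and Elavl2 lower in the Z cluster than in the pL and L clusters, each cluster was also tested on its own. Within the Z cluster of the TDP-43 cKO mice, Pabpc1 stood at 1736, 1820 and 1925 CPM against 1887 to 2142 (log2 -0.12 ± 0.12, adjusted p = 0.465). Elavl2 stood at 31.8, 22.1 and 28.0 CPM against 19.0 to 30.1 (log2 0.19 ± 0.20, adjusted p = 0.515). Both genes overlapped with the controls there, where 25.9% of 12736 genes were called. In the L and pL clusters Pabpc1 was at log2 -0.59 ± 0.19 (adjusted p = 0.118) and -0.55 ± 0.21 (adjusted p = 0.159), without a call but nearer in size to that of the sum. Elavl2 was at log2 0.23 ± 0.12 (adjusted p = 0.319) and 0.19 ± 0.15 (adjusted p = 0.552) in these clusters, against 0.75 in early SC as a whole.

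**Figure D3:**
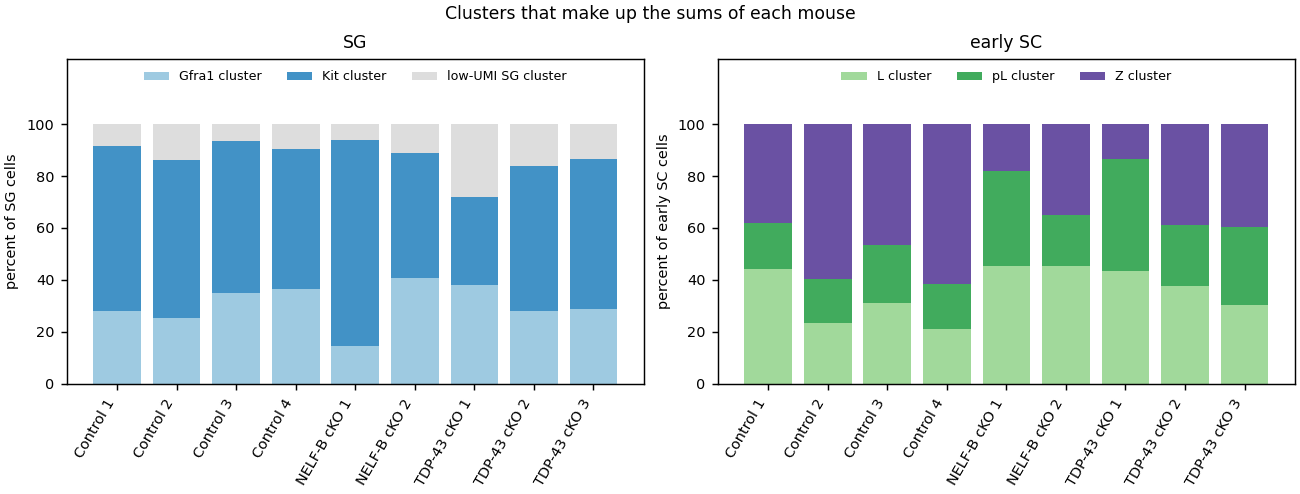
Stacked bars give the percent of SG (left) and of early SC (right) in each cluster, by mouse. The Z cluster is 38.2 to 61.5% of early SC in the control mice and 13.5 to 39.7% in the 5 cKO mice.

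Ybx2, Ybx3 and Ddx25 were lower within the Z cluster too, where lower levels were called for 14.2% of genes. Ybx2 stood at 560.5, 409.4, 369.4 and 399.7 CPM in the controls and at 114, 178 and 152.5 CPM in the TDP-43 cKO mice (log2 -1.49 ± 0.19, adjusted p = 0.000115). Ddx25 stood at 209.6, 120.1, 169.9 and 172.8 CPM in the controls and at 63.6, 95.1 and 71.1 CPM in the TDP-43 cKO mice (log2 -1.06 ± 0.20, adjusted p = 0.00205). Ybx3 stood at 523.1, 302.5, 374.9 and 366.2 CPM in the controls and at 72.9, 190.3 and 174.9 CPM in the TDP-43 cKO mice (log2 -1.31 ± 0.27, adjusted p = 0.00376). None of these groups overlapped, where 23.4% of genes of at least 20 CPM had all TDP-43 cKO mice below the controls. With free RNA subtracted at the lower ratio, all 3 passed (adjusted p = 0.00069 for Ybx2, 0.0144 for Ybx3 and 0.0213 for Ddx25, with 19.3% of genes called). At the somatic ratio Ybx2 passed (log2 -1.17, adjusted p = 0.0206) and Ybx3 (log2 -0.03, adjusted p = 0.975) and Ddx25 (log2 -0.02, adjusted p = 0.983) did not, with 16.1% of genes called. Neither a block for the replicate number nor the removal of cells with a Tardbp UMI from the controls was run for the Z cluster. The 6 markers of P SC summed to 695.8 to 920.2 CPM in the Z cluster of the controls, against 200 to 247.9 CPM in that of the TDP-43 cKO mice. Those of late spermatids summed to 4.47 to 217 CPM in the controls, against 0 to 1.20 CPM in the TDP-43 cKO mice, with up to 4 of 4 at 0 in a cKO mouse. Ybx2, Ybx3 and Ddx25 rose between early SC and P SC in the controls, and how far along the Z cells of each genotype were was not tested. In the other clusters of the TDP-43 cKO mice 0.0067 to 0.0226% of genes and none of the 8 passed, with Ybx2 at log2 -2.02 in the SG cluster with Gfra1, -1.77 in that with Kit, -1.52 in the L cluster and -1.18 in the pL cluster.

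**Figure D4:**
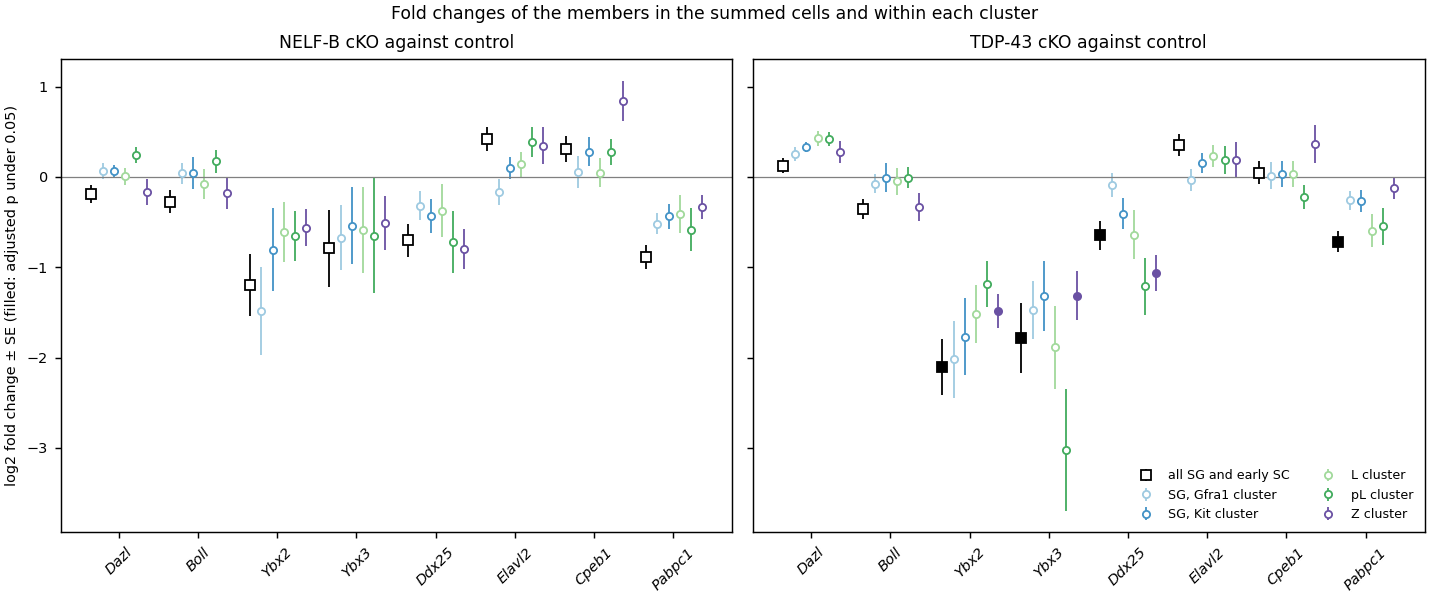
Log2 fold change with its SE (vertical axis) of each gene (horizontal axis) against control, for the NELF-B cKO (left) and the TDP-43 cKO (right); squares are the sums of SG with early SC, circles are single clusters, and filled symbols have an adjusted p under 0.05. Ybx2, Ybx3 and Ddx25 are filled in the Z cluster of the TDP-43 cKO, and Pabpc1 is filled in the sum but not in the Z cluster.

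TDP-43 binds UG repeats in RNA and TG repeats in DNA, so the 250 bases before the start of transcription in the RefSeq table for GRCm38.p6 were searched for GTGTGT on both strands (ACACAC on the other), with overlaps counted. The table had windows for 7 of the 8 genes. The 6 letters occur in 14.9% of all 32851 windows. They were found 42 bases before the start in Boll, at 205 and 203 bases (overlapping) in Ddx25, and in windows of Elavl2 that lie within the annotated gene. They were not found in Ybx2, Ybx3, Dazl or Cpeb1. The bases upstream of the annotated gene are shown for the 3 genes that fell in the Z cluster, with matches in capitals. Boll is shown as well, as its match is the nearest to the start. Whether the letters bear on the level of any gene was not tested. They lie at chr11:69935649-69935795 (plus strand) for Ybx2, chr6:131388477-131388700 (minus strand) for Ybx3, chr9:35558529-35558720 (minus strand) for Ddx25 and chr1:55363754-55364003 (minus strand) for Boll, and each is written 5′ to 3′ on the strand of its gene.
Ybx2: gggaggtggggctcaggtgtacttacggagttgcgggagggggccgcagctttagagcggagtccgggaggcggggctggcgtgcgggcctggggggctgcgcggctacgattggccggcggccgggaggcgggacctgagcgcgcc
Ybx3: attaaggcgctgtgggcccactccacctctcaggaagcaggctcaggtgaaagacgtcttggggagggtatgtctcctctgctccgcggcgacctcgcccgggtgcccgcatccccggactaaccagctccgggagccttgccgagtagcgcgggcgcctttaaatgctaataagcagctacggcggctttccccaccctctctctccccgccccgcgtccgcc
Ddx25: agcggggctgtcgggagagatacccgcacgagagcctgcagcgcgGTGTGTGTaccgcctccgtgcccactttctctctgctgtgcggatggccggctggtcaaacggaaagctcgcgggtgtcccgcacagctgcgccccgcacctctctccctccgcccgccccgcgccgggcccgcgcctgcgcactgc
Boll: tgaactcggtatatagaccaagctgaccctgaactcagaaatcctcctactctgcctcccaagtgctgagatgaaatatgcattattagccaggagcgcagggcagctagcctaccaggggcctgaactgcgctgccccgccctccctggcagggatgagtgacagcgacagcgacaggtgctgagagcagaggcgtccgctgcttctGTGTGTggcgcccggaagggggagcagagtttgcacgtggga

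In the NELF-B cKO mice, SG with early SC gave 10 called genes of 19801, or 0.0505% (0.0253% in each direction), and none of the 8, while 1941 genes were higher and 2110 lower at an unadjusted p under 0.05. Pabpc1 was nearest to the threshold, at 600.3 and 577.1 CPM in NELF-B cKO replicates 1 and 2 against 941.5 to 1107 in the controls (log2 -0.89 ± 0.14, adjusted p = 0.0553). Ybx2 stood at 124.9 and 72.8 CPM against 178.8 to 259.6 (log2 -1.20 ± 0.34, adjusted p = 0.101), and Ddx25 at 86.5 and 67.5 CPM against 92.4 to 143.8 (log2 -0.70 ± 0.18, adjusted p = 0.0866). Both cKO mice lay below all controls for these 3 genes, a pattern of 17.3% of genes of at least 20 CPM. DESeq2 called 1906 genes here, among them Pabpc1 (adjusted p = 3.2e-07), Ybx2 (adjusted p = 0.00573), Ddx25 (adjusted p = 0.00699) and Elavl2 (adjusted p = 0.0465). Ybx3 stood at 247.4 and 85.5 CPM, and replicate 1 lay among the controls (log2 -0.79 ± 0.42, adjusted p = 0.329).

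In early SC of the NELF-B cKO mice, 3.98% of genes were called, 1.87% lower and 2.11% higher, and Ybx2 fell while Elavl2 rose. Ybx2 stood at 170.5 and 151.8 CPM against 254.1 to 352.9 in the controls, 1.99-fold lower (log2 -0.99 ± 0.23, adjusted p = 0.0434). Elavl2 stood at 271.7 and 198.2 CPM against 107.2 to 155.2, 1.77-fold higher (log2 0.82 ± 0.19, adjusted p = 0.0451). Neither gene overlapped with the controls, and 19.5% of genes of at least 20 CPM had both cKO mice below and 26.8% above them. Both calls were lost when cells with a Nelfb UMI were kept (adjusted p = 0.14 for Ybx2 and 0.0825 for Elavl2), without control replicate 1, 2 or 4 (adjusted p = 0.0678 to 0.136) and without NELF-B cKO replicate 1 (adjusted p = 0.0936 for Ybx2 and 0.14 for Elavl2), and that on Ybx2 also without replicate 2 (adjusted p = 0.121). Pabpc1 (log2 -0.87 ± 0.23, adjusted p = 0.0579) and Ddx25 (log2 -0.84 ± 0.23, adjusted p = 0.0629) did not pass in edgeR and did in DESeq2 (adjusted p = 0.00208 and 0.00303). In single clusters, where 0.0402 to 4.51% of genes were called, none of the 8 was called. The nearest were Cpeb1, at 197.4 and 101.3 CPM against 61.1 to 96.0 in the Z cluster (log2 0.84 ± 0.23, adjusted p = 0.0518), and Ddx25 there (log2 -0.80 ± 0.22, adjusted p = 0.0569). In the L, pL and Z clusters Elavl2 was at log2 0.14, 0.39 and 0.35, and Ybx2 at -0.61, -0.65 and -0.56. Each was smaller in size than in early SC as a whole, where the mix of these clusters differed between genotypes. In SG, 0.0166% of genes were called (0.00554% higher and 0.0111% lower), and in P SC 0.0404% (0.0288% higher and 0.0115% lower), and none of the 8 passed in either by edgeR, while DESeq2 called Pabpc1 in SG (log2 -0.47, adjusted p = 0.0292). With free RNA subtracted from SG with early SC, 0.0215% of genes were called (0.00537% higher and 0.0161% lower), again without the 8. At the somatic ratio 1.21% of genes were called, among them Pabpc1 (log2 -0.90 ± 0.16, adjusted p = 0.0424). Ybx2 (log2 0.31, adjusted p = 0.947), Ybx3 (log2 3.49, adjusted p = 0.249) and Ddx25 (log2 1.65, adjusted p = 0.476) changed sign without passing. These values are over controls near the floor at this ratio, so no reversal is read from them. This ratio was not run for early SC, where Ybx2 was called. Nor were a block for the replicate number or the removal of cells with a Nelfb UMI from the controls too.

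The 2 cKO lines were compared directly in SG with early SC, since they share the control mice. Of 19801 genes, 0.0707% differed (0.0455% higher and 0.0253% lower in the TDP-43 cKO), and none of the 8. The TDP-43 cKO mice were at log2 -0.90 ± 0.34 against the NELF-B cKO mice for Ybx2 (adjusted p = 0.22), at -0.99 ± 0.43 for Ybx3 (adjusted p = 0.25) and at 0.31 ± 0.10 for Dazl (adjusted p = 0.191). For Pabpc1 the difference was 0.17 ± 0.14 (adjusted p = 0.52) and for Ddx25 0.06 ± 0.19 (adjusted p = 0.896). A difference between the lines was thus not shown for any of the genes, at SE of up to 0.43 on the log2 scale.

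The few D SC of the TDP-43 cKO mice that had no Tardbp UMI, 15 and 21 cells of replicates 2 and 3, gave calls for 2.61% of 16285 genes, 1.92% lower and 0.694% higher, and 3 of the 8 fell. Pabpc1 stood at 1731 and 1746 CPM against 2120 to 2665 in the controls (log2 -0.70 ± 0.11, adjusted p = 0.00638). Ybx2 stood at 708.5 and 665.2 CPM against 817.8 to 904.1 (log2 -0.52 ± 0.11, adjusted p = 0.0192), and Ybx3 at 1798 and 1886 CPM against 2068 to 2233 (log2 -0.46 ± 0.10, adjusted p = 0.0179). The groups did not overlap, as for 17.8% of genes of at least 20 CPM in this direction, but with all cells kept none of the 3 passed (adjusted p = 0.301, 0.356 and 0.269), and without TDP-43 cKO replicate 3, with 1 cKO mouse left, neither did they (adjusted p = 0.0883, 0.132 and 0.0965). Without control replicate 4, Ybx2 (adjusted p = 0.0618) and Ybx3 (adjusted p = 0.0773) did not pass, nor did Ybx3 without control replicate 3 (adjusted p = 0.0518). In RS, 0% of 18076 genes were called by edgeR, with 1386 higher and 2085 lower at an unadjusted p under 0.05. Ybx3, at 1219 and 1305 CPM against 1566 to 1878, was nearest (log2 -0.75 ± 0.17, adjusted p = 0.0838). The RS cluster with few UMIs gave 63597 of the 187082 RS UMIs of TDP-43 cKO replicate 2 and 157470 of 537839 in replicate 3. Only 1 TDP-43 cKO mouse held at least 5 cells of the RS cluster with Prm2. Prm2 was at log2 -5.74 ± 1.81 in RS (adjusted p = 0.135). How much of a difference in RS came from this mix was not tested. Elavl2 had 0 UMIs in RS of TDP-43 cKO replicates 2 and 3, which allows up to 16.0 and 5.58 CPM and so does not differ detectably from the 3.38 to 5.91 CPM of the controls. In P SC, where the TDP-43 cKO mice kept 0, 4 and 1 cells after the removal of those with a Tardbp UMI, no test was made. The test with all cells kept is given below.

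The other genes of translational control were described by lists, to be read against the 11.5% of all genes called lower and 5.12% called higher. In SG with early SC of the TDP-43 cKO mice, 0 of 14 tested paralogs of the 8 genes were higher and 5 lower (median log2 0.002, against 0.038 over all genes), with Pabpc2 (log2 -3.20) and Pabpc6 (log2 -2.20), which encode testis poly(A)-binding proteins, and Cpeb2 (log2 -0.86) among them. Of 30 other translational regulators, Fmr1 rose (log2 0.44) and Ddx4 (log2 -0.57), the germ cell helicase VASA, and Meioc (log2 -0.49), which is needed for meiosis to go on, fell, with a median of -0.10. Of 21 factors of the cap, the tail and its removal, Eif4ebp1 (log2 0.84), which restrains the cap-binding protein, and Eif4a1 (log2 0.65), the helicase of initiation, rose, and 5 fell, among them Papolb (log2 -1.97), a cytoplasmic poly(A) polymerase of the testis, with a median of 0.015. Of 12 messages known to be stored in spermatids, 10 fell (median log2 -3.28), Prm2, which encodes a protamine, by the most (log2 -8.19). In the controls 11 of these 12 messages rose between D SC and RS (median log2 4.48), where 31.6% of all genes rose. Prm1, Prm2, Tnp1 and Tnp2 of this list are also the late spermatid markers that gauged free RNA, so their decrease is not separate from that gauge. The part of free RNA in the decrease of the 12 messages was not tested. In the same cells of the NELF-B cKO mice edgeR called 0.0505% of all genes, and none of the 5 lists, the 8 genes included, had a called member. DESeq2 called Pabpc1, Ybx2, Ddx25 and Elavl2 there, as given above.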

How the data were processed

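Testes of 9 mice were profiled by 3′ single cell RNA-seq. The deposited files hold counts of UMIs per gene and barcode, made by the authors with Cell Ranger on the mm10 reference, with Seurat 4.2.0 and DESeq2 1.36 listed for later steps. The study's methods name Cell Ranger 6.1.1 for base calling and demultiplexing and 7.0.0 for mapping. The counts are raw, and 0 columns of per-sample values were left unused. The 8 genes, the lists and the tests were chosen with earlier results of these data known.

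Barcodes were kept where more than 1000 genes were seen and fewer than 10% of UMIs were mitochondrial. Genes seen in more than 15 barcodes entered log normalisation, selection of 3000 variable genes, 40 principal components, 20 neighbours and Leiden clustering (leidenalg 0.10.2, resolution 0.8, seed 7, Python 3.11.15). The 8 genes and the members of the lists, 89 in all with the targeted genes, were left out of clustering. A cluster was named from at least 3 fixed markers at 2-fold or more above the other barcodes, with a median of at least 2000 UMIs and at most 80% of its barcodes from 1 mouse. Names were rebuilt here and may differ from those of the study. Scrublet marked 94 cells (0.336%), so that it had not worked, and doublets were kept. Of 44872 distinct barcodes, 260 occurred in more than 1 library.

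UMIs were summed per mouse and stage and tested with edgeR 4.0.16 in R 4.3.3 (quasi-likelihood, TMM factors, filter on low counts, Benjamini-Hochberg adjustment over all genes tested). A call is an adjusted p under 0.05, and every adjusted p is from edgeR unless DESeq2 (1.42.0) is named. Counts of called genes can include the targeted gene, whose UMIs the removal took out of the germ cells of its cKO line. Errors of log2 fold changes are SE and those of levels SD. All 9 mice shared 1 estimate of the spread in comparisons of genotypes. Comparisons of stages, and of an effect between stages, had the mouse as a block, because their sums come from the same animals. Sums of under 10 cells entered no test. Free RNA was taken from barcodes of 1 to 100 UMIs, and its share of a sum was set by markers of somatic cells or of late spermatids, whichever gave less. The scripts were tested on simulated data. Named genes were the 8, the targeted genes, up to 4 called genes per list and direction, and for each of the 8 the genes closest over the control sums. The single clusters, plain totals and somatic marker ratio were alternatives chosen after seeing the data.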

Additional observations from a re-analysis of the deposited data

Results flagged for a closer look

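Among 48 sets of 4 control values, for the 8 genes in the 5 stages and in SG with early SC, 2 held a mouse far from the other 3, and chance flags about 5% of such sets. Ybx2 in D SC stood at 904.1 CPM in control replicate 2, against 817.8 to 828.6 CPM in the others. Dazl in RS stood at 50.8 CPM in control replicate 4, against 58.4 to 59.6 CPM.

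In the test of whether the effect of the TDP-43 cKO differed between early SC and SG (edgeR, interaction of genotype and stage), 6.03% of 18713 genes were called, 4.69% lower in early SC, and 2 of the 8 genes were among them. For Ddx25 the log2 fold change against control was lower in early SC than in SG by a difference of -1.086 (adjusted p = 0.00807), and the call held in 6 of 8 alternatives. None of these alternatives subtracted free RNA, and Ddx25 in SG and early SC was not told apart from background. For Boll it differed by -0.333 (adjusted p = 0.0487), and the call held in 0 of 8 alternatives.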

How the results depend on the processing

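Over 1384 recomputed values of 128 results on the 8 genes, 1154 kept their direction and side of the threshold, 98 lost a call, 39 gained one and 93 changed sign. Where no reason is given, the cause was not tested. In SG, edgeR called none of the 8 genes in either cKO line, while DESeq2 called Dazl, Ybx2 and Ybx3 in the TDP-43 cKO and Pabpc1 in the NELF-B cKO. The 10 genes called in SG with early SC of the NELF-B cKO became 1 to 1906 with the setting. No TDP-43 cKO test was possible in P SC, and no NELF-B cKO test in D SC or RS, since too few mice kept 10 cells; with all cells kept, 0.0238% of genes and none of the 8 were called in P SC of the TDP-43 cKO (edgeR).

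Whether the replicate numbers pair the mice is not given in the sources used here. Deviations of same-numbered mice correlated at -0.4023 to 0.3485 in 7 pairs, too few to settle it. With the replicate block, 1 gene was called in SG with early SC of the NELF-B cKO and 1 in those of the TDP-43 cKO, and Ybx2, Ybx3, Ddx25 and Pabpc1 stood at an adjusted p of 0.102, 0.114, 0.119 and 0.105. Without the mouse as a block (no replicate block), the step of Cpeb1 from D SC to RS was -0.019 and other directions held.

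In SG with early SC, the counts of called genes for the NELF-B cKO were 3 with cells of the targeted gene kept, 1906 with DESeq2, 4 with free RNA subtracted, 3 with RLE factors, 27 with plain totals, 40 with no filter on low counts, 1 at the stricter threshold (adjusted p under 0.01 and log2 fold change of at least 1), 1147 with cells holding a UMI of the targeted gene left out of the controls too, 1 with 2 groups in the fit and 212 at the somatic ratio. For the TDP-43 cKO they were 1556 with free RNA subtracted, 149 at the stricter threshold, 210 with such cells left out of the controls too and 1077 at the somatic ratio. Between the cKO lines they were 1 with all cells kept and 1060 with DESeq2. In single clusters the NELF-B cKO gave 6 (Gfra1), 44 (L), 350 (pL) and 575 (Z) genes, and the TDP-43 cKO 1 (Gfra1), 3 (Kit), 3 (L) and 2 (pL). In the Z cluster the NELF-B cKO gave 355 with free RNA subtracted and 215 at the somatic ratio, and the TDP-43 cKO 1786 at the somatic ratio.

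By stage, the NELF-B cKO gave 271 genes in SG with DESeq2 and 1 with free RNA subtracted, 35 in early SC with all cells kept and 1949 with DESeq2, and 46 in P SC with all cells kept. The TDP-43 cKO gave 1477 in SG with DESeq2, 2121 in early SC with all cells kept and 2036 with free RNA subtracted, and 214 in D SC with all cells kept. The difference between early SC and SG gave 3 genes for the NELF-B cKO and 184 for the TDP-43 cKO with all cells kept.

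All sign changes but 2 were of values that had no call as reported, the exceptions being Ybx3 and Ddx25 of the TDP-43 cKO at the somatic ratio. With all cells kept they were, for Boll, 0.024 between the cKO lines, 0.076 in SG and -0.006 in D SC of the TDP-43 cKO, for Ddx25 0.002 and Pabpc1 0.014 in P SC of the NELF-B cKO, for Cpeb1 0.566 in D SC of the TDP-43 cKO, and in the differences between early SC and SG 0.082 for Ybx3 (NELF-B cKO) and 0.178 for Dazl (TDP-43 cKO). With DESeq2, Boll was 0.014 in SG of the TDP-43 cKO and Elavl2 0.186 from P SC to D SC, where RLE factors gave 0.198 and plain totals 0.209. With free RNA subtracted, Cpeb1 was -0.007 in SG with early SC and -0.026 in SG of the TDP-43 cKO, where Boll was 0.013 and Ddx25 0.396. From early SC to P SC, Boll was -0.016 with free RNA subtracted and -0.174 with plain totals. From D SC to RS, Dazl was -0.83, Ybx3 0.017 and Cpeb1 -1.754 with free RNA subtracted (called for Dazl, adjusted p = 0.0436, and Cpeb1, 0.00659), Dazl -0.166 and Cpeb1 -0.215 with plain totals, and Dazl -0.321, Ybx3 0.143, Cpeb1 -0.774 (called, adjusted p = 0.0281) and Pabpc1 0.012 in the RS cluster with Prm2 alone. With such cells left out of the controls too, Boll was 0.049 in the TDP-43 cKO.

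In single clusters of the NELF-B cKO, Dazl was 0.065 (Gfra1), 0.062 (Kit), 0.009 (L) and 0.24 (pL), Boll 0.041 (Gfra1), 0.048 (Kit) and 0.172 (pL), and Elavl2 -0.168 (Gfra1). In those of the TDP-43 cKO, Elavl2 was -0.034 (Gfra1) and Cpeb1 -0.219 (pL). At the somatic ratio, Ybx2 was 0.309, Ybx3 3.489 and Ddx25 1.646 in the NELF-B cKO, and Dazl -0.071, Ybx3 3.108, Ddx25 2.31 and Cpeb1 -0.153 in the TDP-43 cKO. Those of Ybx2, Ybx3 and Ddx25 are over controls near the floor at this ratio. In the Z cluster at that ratio, Ybx3 was 0.577 in the NELF-B cKO and Elavl2 -0.193 in the TDP-43 cKO.

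With each mouse left out in turn, 1 to 468 genes were called in SG with early SC of the NELF-B cKO, 746 to 2801 in those of the TDP-43 cKO and 2 to 2904 between the lines. The counts were 1 to 486 (NELF-B cKO) and 1 to 2 (TDP-43 cKO) in SG, 1 to 426 and 1747 to 2925 in early SC, 1 to 1091 in P SC of the NELF-B cKO, 15 to 557 (D SC) or 0 to 927 (RS) for the TDP-43 cKO, and 0 to 13 (NELF-B cKO) and 93 to 483 (TDP-43 cKO) for the difference between early SC and SG. The counts of 468, 2904, 486, 1091 and 13 were without NELF-B cKO replicate 2, that of 927 without control replicate 2 and that of 15 without TDP-43 cKO replicate 3.

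Leaving out a mouse moved these values across 0. In the TDP-43 cKO, Cpeb1 ran from -0.013 to 0.107 in SG with early SC and from -0.099 to 0.077 in SG, Boll from -0.056 to 0.044 in SG and from -0.033 to 0.131 in D SC, Dazl from -0.669 to 0.613 and Cpeb1 from -7.306 to 0.62 in D SC, and Cpeb1 from -1.136 to 0.229 in RS. Between the lines, Boll ran from -0.276 to 0.12, Ddx25 from -0.117 to 0.225, Elavl2 from -0.341 to 0.231 and Cpeb1 from -0.506 to 0.001. In SG of the NELF-B cKO, Boll ran from -0.077 to 0.2, Ybx3 from -1.672 to 0.118 and Elavl2 from -0.222 to 0.37. In P SC of the NELF-B cKO, Dazl ran from -1.217 to 0.541, Ybx3 from -0.287 to 0.061, Ddx25 from -0.114 to 0.033, Elavl2 from -2.189 to 0.46, Cpeb1 from -0.228 to 1.115 and Pabpc1 from -0.155 to 0.087. Among the steps, Elavl2 ran from -0.29 to 0.241 from P SC to D SC, and Dazl from -0.182 to 0.534 and Cpeb1 from -0.179 to 0.472 from D SC to RS, where Dazl was called higher without control replicate 2 (adjusted p = 0.00425). In the differences between early SC and SG, Ybx2 ran from -0.671 to 0.983 and Ybx3 from -0.352 to 0.209 (NELF-B cKO), and Dazl from -0.221 to 0.071 and Ybx2 from -0.014 to 0.404 (TDP-43 cKO).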

Other observations

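An unnamed cluster of 1732 barcodes with a median of 3120 UMIs had the highest Boll levels. Boll stood there at 636.8, 765.7, 826.7 and 733.8 CPM in control replicates 1 to 4, at 742.4 and 929.1 CPM in NELF-B cKO replicates 1 and 2, and at 844.7 and 1129 CPM in TDP-43 cKO replicates 2 and 3. The cluster entered no comparison.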
